A study of Mus musculus with 14 samples.

Results

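The genes described here are 10 genes of the ATF4 amino acid and stress response: Atf4, Asns, Psat1, Phgdh, Trib3, Ddit3, Chac1, Sesn2, Slc7a11 and Eif4ebp1. They are 10 of the 55228 gene symbols in the count table, and all 10 were among the 11757 symbols with enough counts to be tested. They were chosen by name as known parts of the pathway, with the measured values of Eif4ebp1, higher in distal than in control libraries, already in view. The distal against control difference of Eif4ebp1 is therefore given as a description with no test, and only the other 9 genes carry a p-value for that comparison.

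The study asked how mouse tail epidermal cells from a region associated with memory differ from cells of a control region after both have been grown outside the tissue. RNA came from cells that the labels call Lrig1 GL Sca1+, sorted to enrich for the upper hair follicle and then kept 1 week in keratinocyte medium. The control group (8 libraries) came from the control region, called non-memory, and the other group (6 libraries) from the distal memory region. All animals of both groups had the genotype Lrig1CreER/Rosa-TdTomato, in which a ligand-dependent Cre is expressed from Lrig1, which marks progenitors of the upper hair follicle, and switches on a red reporter. Treatment is given as none and time as 8w pw1 in both groups. The sample descriptions put the libraries in 4 sets: control set 1 (n = 6), control set 2 (n = 2), distal set 1 (n = 2) and distal set 2 (n = 4). No set holds both regions, so set and region cannot be told apart. Whether sets of the same number are matched across regions was not tested, and no fit used such a match. How many animals or cultures stand behind a library is not stated, and p-values measure only how these libraries vary, which may reflect technical replication.

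ATF4 is a transcription factor whose protein is made mainly when the initiation factor eIF2 is phosphorylated, as happens when amino acids run short, when unfolded proteins build up in the endoplasmic reticulum, or under oxidative stress. General translation falls in that state, while ATF4 protein rises and switches on genes that make and import amino acids, charge transfer RNAs and, under lasting stress, favour cell death. Much of this control acts on the translation of the Atf4 message, which RNA counts do not measure. ATF4 binds DNA as a dimer with C/EBP proteins at composite elements, and keratinocytes use the pathway to adjust protein synthesis and redox balance.

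Libraries held 4515646 to 7458872 counts in the control group and 2137934 to 4513518 in the distal group. Levels are in CPM, counts scaled to a common library total with TMM factors, and differences are log2 fold changes, distal minus control, from edgeR's quasi-likelihood test where a gene passes at a Benjamini-Hochberg adjusted p below 0.05. The median log2 fold change of all tested genes was -0.16. The slope of a library's log2 levels on transcript GC content, per 10 percentage points and relative to the mean of all libraries, ran from -0.60 to -0.33 in control and from 0.22 to 0.91 in distal libraries. A second fit with this GC and length trend removed from each library is therefore given beside the first, and another uses the counts summed per set. Keratinocyte markers summed to between 11700 and 15600 CPM in control and between 15500 and 23000 CPM in distal libraries, and none of the 9 was at 0. The 9 did not move together: Krt5, Krt14, Itgb4 and Sfn passed as higher in distal cells, and Trp63, Itga6, Epcam and Dsg3 as lower. These 4 and 4 calls stand beside 24.3% and 24.1% of all tested genes, and the median log2 fold change of the 9 was -0.31. With the trend removed 1 was higher and 2 lower. Of 6 upper hair follicle markers, Lrig1 averaged 43.9 and 79.1 CPM and Ly6a, which encodes Sca1, 1880 and 1390 CPM, in control and distal libraries, while Gata6 and Defb6 were too low to test. The 8 fibroblast markers summed to 245 CPM in control replicate 1 and 93.5 CPM in distal replicate 3, and the 5 muscle markers to 64.3 CPM in distal replicate 4. Of the muscle markers only Acta1 had enough counts to be tested. Lum was at 0 in every library, as were Dct and Kit of melanocytes, Cd3e, Cd207 and Tyrobp of immune cells, Cdh5 and Emcn of endothelium, and Ckm and Tnnt3 of muscle. In such bulk samples, fewer cells of a type and less RNA per cell cannot be told apart.

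The promoters of the genes are shown first, because ATF4 binds DNA with C/EBP proteins at composite elements. RefSeq promoters (GRCm38.p6, 250 bases before to 50 after a start) were matched for 9 of the 10 genes, all but Eif4ebp1. They were searched on both strands for the spellings TGATGNAA and TGNTGCAA, which overlap where the sequence reads TGATGCAA and were chosen with these promoters in view. At least 1 spelling was present in 6 of the 9 genes. Over all 32851 RefSeq promoters, TGATGNAA was present in 3.97%, TGNTGCAA in 3.22% and either in 6.2%. Because the spellings were chosen with these promoters in view, nothing is read from the 6 of 9 genes beside these shares. The shares also count promoters rather than genes. A match describes the letters and is not evidence of binding.

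The longer stretches below are those of Slc7a11 and Psat1, which were lower in distal cells, and of Phgdh, which was higher. Each is 150 bases before a RefSeq start and outside annotated exons (the Psat1 stretch lies within the longer GENCODE span of that gene), read 5′ to 3′ on the gene's strand (minus for all 3), with matches in capitals. They lie at chr3:50443615-50443764, chr19:15925060-15925209 and chr3:98339991-98340140.
Slc7a11: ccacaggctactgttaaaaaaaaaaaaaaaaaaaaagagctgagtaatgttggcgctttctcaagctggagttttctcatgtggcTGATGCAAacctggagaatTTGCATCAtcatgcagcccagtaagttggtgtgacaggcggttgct
Psat1: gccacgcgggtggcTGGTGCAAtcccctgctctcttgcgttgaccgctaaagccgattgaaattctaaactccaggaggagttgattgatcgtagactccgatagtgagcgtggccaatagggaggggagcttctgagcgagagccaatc
Phgdh: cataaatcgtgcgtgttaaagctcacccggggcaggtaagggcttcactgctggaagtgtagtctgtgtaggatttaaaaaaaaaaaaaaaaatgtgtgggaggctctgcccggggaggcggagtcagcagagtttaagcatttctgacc
The Slc7a11 promoter held 2 matches, in opposite orientations, starting 66 and 47 bases before the RefSeq start. In Psat1 the match started 136 bases before the start used here; a second RefSeq start of Psat1 had none. The Phgdh, Ddit3 and Atf4 promoters held neither spelling.

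The other genes with a match are shown as 30-base windows in the same format, because their matches differ in spelling, orientation and distance. They lie at chr6:7693214-7693243 (Asns, minus strand, inside its first annotated exon), chr2:119351038-119351067 (Chac1, plus strand), chr2:152344075-152344104 (Trib3, minus strand) and chr4:132510656-132510685 (Sesn2, minus strand).
Asns: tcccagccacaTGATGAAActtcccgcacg
Chac1: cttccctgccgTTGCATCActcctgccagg
Trib3: cgggtcacagaTGGTGCAAtcccgggccgc
Sesn2: catgcaaaagtTTGCAGCAtctgtgcgagg
Trib3 held a second match, TTACATCA, 14 bases after its start. The genes with a match were Psat1 and Slc7a11, lower in distal cells in the fit of 14 libraries, and 4 genes that did not pass in it.

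Of the 9 genes that carry a test, Phgdh was higher and Psat1 and Slc7a11 were lower in distal cells, and the other 6 did not pass. Eif4ebp1 is not counted here, and its values are described further on. Of all tested genes 24.3% were higher and 24.1% lower at this threshold (48.3% in all), and nothing is read from the count of 3 among 9. The middle log2 fold change of the 9 genes, without Eif4ebp1, was that of Chac1 at 0.38, against a median of -0.16 for all tested genes. Phgdh was higher in each distal library than in all control libraries, as were 12.7% of tested genes. None of the genes was lower in each distal library than in all control libraries, as 5.65% of tested genes were. With the GC and length trend removed, Phgdh was higher and Atf4 and Psat1 were lower among the 9, with 10.4% of 11654 genes higher and 8.57% lower (18.9% in all). The middle value of the 9 was then that of Trib3 at -0.40, against a median of 0.03 for all genes. With counts summed per set, Phgdh was higher and Slc7a11 lower, with 18.8% of tested genes higher and 11.7% lower (30.5% in all). With every library thinned to the lowest total count, Phgdh and Ddit3 were higher and Psat1 and Slc7a11 lower. Of the 10257 genes tested in that fit, 51.9% were called. The plot of levels by library shows the separation of Phgdh and Eif4ebp1 and the overlap of the rest.

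**Figure D1:**
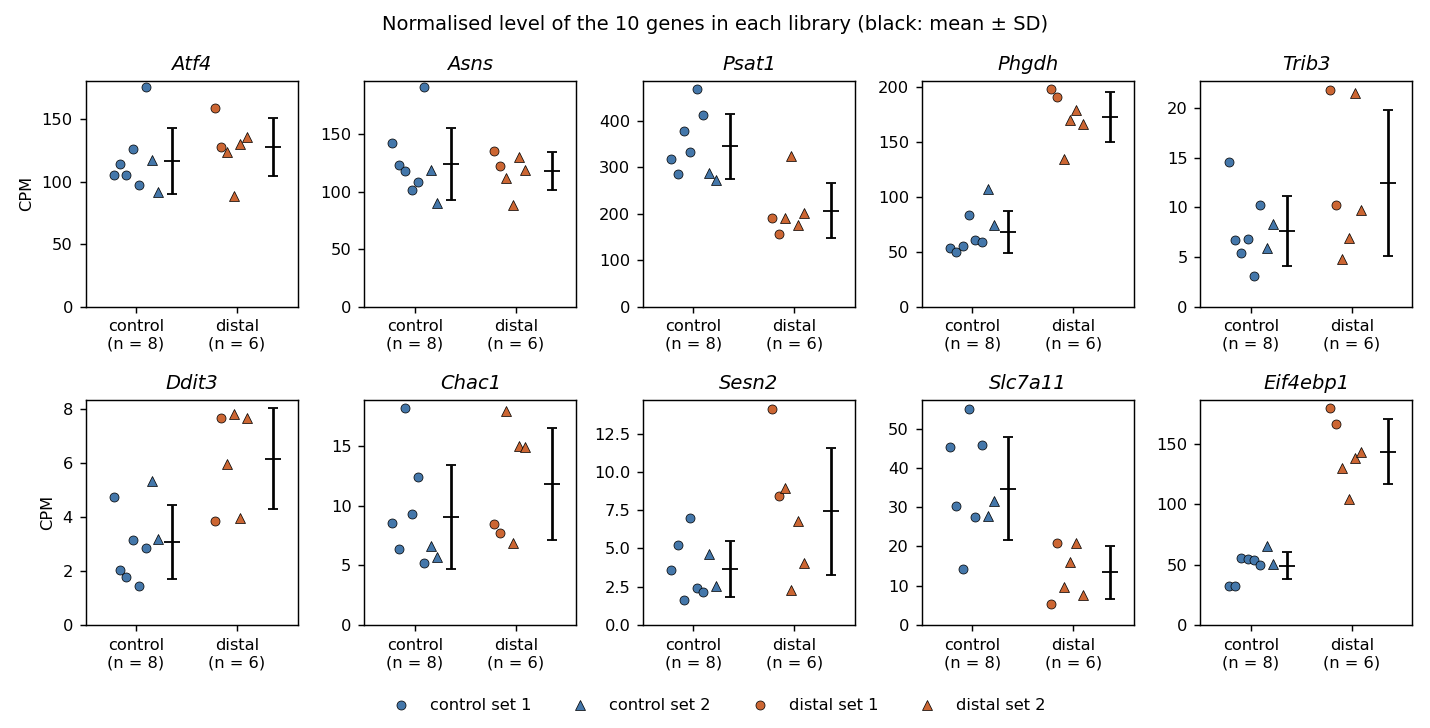
Normalised level (CPM) of each of the 10 genes in the 8 control (blue) and 6 distal (orange) libraries, with circles for set 1, triangles for set 2 and black bars for mean ± SD. Phgdh reaches at most 107 CPM in control and at least 134 CPM in distal libraries, and Eif4ebp1 at most 65.3 and at least 104 CPM, while the other 8 genes overlap between regions.

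Atf4 (chr15:80255184-80257541, plus strand) encodes the factor itself. It had 91.5, 110 and 176 CPM (lowest, median and highest) in control libraries and 88.1, 129 and 159 CPM in distal libraries. The ranges overlapped almost fully, and control replicate 6 was the highest of all. The means were 116 CPM ± 26.5 (SD, n = 8) and 127 CPM ± 22.8 (SD, n = 6), and the log2 fold change was 0.13 ± 0.16 (SE; adjusted p = 0.53 by edgeR; 95% interval -0.21 to 0.47). With the GC and length trend removed the sign turned: Atf4 was lower in distal cells by a log2 fold change of -0.62 ± 0.16 (SE; adjusted p = 0.0103 by edgeR). Its transcripts have a median GC content of 55.5%, and the 1133 tested genes within 1 percentage point of that had a median log2 fold change of 0.87 in the first fit. Atf4 lay below genes of like GC content in the first fit and below 0 in the second, and the part of the GC trend in either value was not tested.

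Asns makes asparagine from aspartate and glutamine and is a standard readout of the amino acid response (chr6:7675169-7693254, minus strand). Its levels were 90.4, 118 and 191 CPM in control and 88.6, 120 and 135 CPM in distal libraries. The groups overlapped fully, and control replicate 6 was again the highest. Means of 124 CPM ± 31.1 (SD, n = 8) and 118 CPM ± 16.5 (SD, n = 6) gave a log2 fold change of -0.07 ± 0.17 (SE; adjusted p = 0.736 by edgeR; 95% interval -0.42 to 0.27). The sign of this small difference changed with the scaling and with several single libraries, so no direction is given for Asns. It was 0.10 with upper-quartile scaling and 0.15 without control replicate 6.

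Phgdh and Psat1 encode consecutive enzymes of serine synthesis, and they moved in opposite directions. Phgdh (chr3:98313170-98339990, minus strand) draws carbon from glycolysis into the pathway. Its levels were 50.1, 60 and 107 CPM in control and 134, 175 and 198 CPM in distal libraries. The lowest distal library lay above the highest control library. The mean rose 2.54-fold, from 68.0 CPM ± 19.4 (SD, n = 8) in control to 173 CPM ± 22.5 (SD, n = 6) in distal cells, with a log2 fold change of 1.35 ± 0.17 (SE; adjusted p = 1.07e-05 by edgeR). It still passed with the trend removed, at a smaller 0.57 ± 0.15 (SE; adjusted p = 0.01 by edgeR), and with counts summed per set, at 1.38 ± 0.28 (SE; adjusted p = 0.0037 by edgeR). Phgdh has 55.3% GC, and genes of like GC content had a median log2 fold change of 0.84.

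Psat1 (chr19:15904678-15947337, minus strand) carries out the transamination that follows. Its levels were 273, 325 and 469 CPM in control and 157, 190 and 324 CPM in distal libraries. Distal replicate 4 lay within the control range, and the other 5 distal libraries, at up to 202 CPM, lay below every control library. The mean fell from 344 CPM ± 69.7 (SD, n = 8) in control to 206 CPM ± 59.7 (SD, n = 6) in distal cells, 1.67-fold lower, with a log2 fold change of -0.74 ± 0.18 (SE; adjusted p = 0.0024 by edgeR). Psat1 also passed with the trend removed, at -0.48 ± 0.16 (SE; adjusted p = 0.0418 by edgeR). It did not pass with counts summed per set, at -0.54 ± 0.28 (SE; adjusted p = 0.144 by edgeR), nor without control set 1, at -0.41 (adjusted p = 0.272 by edgeR). An antisense gene, Gm3329, overlaps Psat1, and whether counting used strand is not given in any source used here.

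Slc7a11 encodes the cystine and glutamate exchanger xCT, which supplies cysteine for glutathione (chr3:49892526-50443614, minus strand). Its levels were 14.2, 31.0 and 54.9 CPM in control and 5.27, 12.8 and 20.9 CPM in distal libraries. Control replicate 3 lay within the distal range, and the other 7 control libraries, at 27.5 CPM or more, lay above every distal library. Distal libraries held 15 to 74 reads of it. The mean fell 2.58-fold, from 34.7 CPM ± 13.1 (SD, n = 8) in control to 13.4 CPM ± 6.81 (SD, n = 6) in distal cells, with a log2 fold change of -1.36 ± 0.34 (SE; adjusted p = 0.00308 by edgeR). With counts summed per set it passed at -1.12 ± 0.33 (SE; adjusted p = 0.0195 by edgeR). With the trend removed it stood at -0.44 ± 0.34 (SE; adjusted p = 0.395 by edgeR) and the call was lost. Slc7a11 has the lowest GC content of the 10 genes, 41.9%, and the 820 genes of like GC content had a median log2 fold change of -0.87. The call was also lost without control set 1 (-1.11, adjusted p = 0.116 by edgeR) and without distal set 2 (-1.41, adjusted p = 0.055 by edgeR). Several predicted genes, among them Gm2345 and Gm37498, overlap Slc7a11.

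The stress outputs of the pathway had few counts and none of the 4 passed. Ddit3 encodes CHOP, a factor that drives cell death under lasting stress (chr10:127290774-127296288, plus strand). Its levels were 1.45, 3 and 5.35 CPM in control and 3.87, 6.81 and 7.80 CPM in distal libraries, from 9 to 34 reads a library. Control replicates 1 and 7 lay within the distal range and the other 6 below it. Means of 3.07 CPM ± 1.38 (SD, n = 8) and 6.16 CPM ± 1.87 (SD, n = 6) gave a log2 fold change of 1.00 ± 0.41 (SE; adjusted p = 0.0506 by edgeR), and with the trend removed 0.42 ± 0.40 (SE; adjusted p = 0.51 by edgeR). The first value sits at the threshold. Ddit3 passed with DESeq2 (0.99, adjusted p = 0.0363), with upper-quartile scaling (1.16, adjusted p = 0.0323 by edgeR), with thinned counts (1.10, adjusted p = 0.0472 by edgeR) and without control set 2 (1.29, adjusted p = 0.0255 by edgeR). It also passed without control replicate 1, 7 or 8 or distal replicate 1 or 5, when it was 1.11, 1.26, 1.11, 1.20 and 1.21. Ddit3 overlaps the transfer RNA synthetase gene Mars on the opposite strand and shares its name with a second gene model, so its counts are uncertain. Mars itself rose from 73.8 CPM to 122 CPM, by a log2 fold change of 0.72.

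Sesn2 encodes sestrin 2, a leucine sensor that restrains the growth kinase complex mTORC1 (chr4:132492032-132510501, minus strand). Its levels were 1.64, 3.08 and 6.98 CPM in control and 2.3, 7.59 and 14.1 CPM in distal libraries, which overlapped. Means of 3.65 CPM ± 1.84 (SD, n = 8) and 7.42 CPM ± 4.13 (SD, n = 6) gave a log2 fold change of 1.01 ± 0.45 (SE; adjusted p = 0.0726 by edgeR), and with the trend removed 0.19 ± 0.43 (SE; adjusted p = 0.808 by edgeR). Sesn2 passed without control replicate 4 (1.22), distal replicate 4 (1.34) or distal replicate 6 (1.26), with upper-quartile scaling (1.20, adjusted p = 0.0432 by edgeR) and without distal set 2, at its largest value (1.63, adjusted p = 0.0472 by edgeR). It is 58.7% GC, and genes of like GC content had a median log2 fold change of 1.16. A gene model on the same strand, Gm12981, overlaps Sesn2, and how counting handled shared reads is not given in any source used here.

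Trib3, a pseudokinase induced by ATF4 and CHOP that damps their output (chr2:152337422-152344032, minus strand), had 3.06, 6.76 and 14.6 CPM in control and 4.81, 9.96 and 21.8 CPM in distal libraries. Distal replicates 1 and 5 stood above all control libraries, and the other 4 lay within the control range. The means were 7.61 CPM ± 3.51 (SD, n = 8) and 12.5 CPM ± 7.35 (SD, n = 6). Its log2 fold change was 0.71 ± 0.39 (SE; adjusted p = 0.138 by edgeR), and with the trend removed -0.40 ± 0.39 (SE; adjusted p = 0.525 by edgeR), with the sign turned. Trib3 passed without distal replicate 3 (1.02, adjusted p = 0.037 by edgeR) and without the 3 libraries of highest fibroblast or muscle marker sums (1.28, adjusted p = 0.00903 by edgeR), an alternative chosen after the data were seen.

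Chac1, which degrades glutathione (chr2:119351229-119354381, plus strand), had 5.20, 7.57 and 18.2 CPM in control and 6.89, 11.7 and 17.9 CPM in distal libraries. The ranges were nearly the same, with means of 9.04 CPM ± 4.38 (SD, n = 8) and 11.8 CPM ± 4.67 (SD, n = 6). Its log2 fold change was 0.38 ± 0.34 (SE; adjusted p = 0.365 by edgeR), with a 95% interval of -0.33 to 1.09. The sign turned with the trend removed, at -0.55 ± 0.36 (SE; adjusted p = 0.315 by edgeR), and without distal set 2 (-0.17).

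Counting error limits these low genes. Poisson counting alone would give Ddit3 a coefficient of variation of 26.5% in control and 23.5% in distal libraries, against 45% and 30.4% observed. For Sesn2 counting would give 25.1% and 23.7%, against 50.4% and 55.7%. For Slc7a11 it would give 7.75% and 17.7%, against 37.7% and 50.8%, and in distal libraries that is no less than for Trib3 (17.7%) and Chac1 (17.4%). For Atf4 it would give 4.03% and 4.94%, against 22.8% and 17.9%, so for the abundant genes nearly all of the spread lies between libraries.

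Eif4ebp1 encodes 4E-BP1, which binds the cap-binding protein eIF4E and blocks cap-dependent translation until mTORC1 phosphorylates it (chr8:27260329-27276674, plus strand). The following values chose the gene and are a description. Control libraries held 31.9, 52.3 and 65.3 CPM and distal libraries 104, 141 and 179 CPM. Each distal library was above each control library. The mean was 49.1 CPM ± 11.5 (SD, n = 8) in control and 143 CPM ± 26.5 (SD, n = 6) in distal cells, 2.92-fold higher, a log2 fold change of 1.54 ± 0.18 (SE). With the trend removed it was 1.36 ± 0.17 (SE) and with counts summed per set 1.67 ± 0.28 (SE). Its GC content is 51.4%, and the 1217 genes of like GC content had a median log2 fold change of 0.13. Eif4ebp1, Phgdh, Ddit3 and Asns lay above the median of genes of like GC content, and Atf4, Chac1, Trib3, Slc7a11, Psat1 and Sesn2 below it. For Ddit3 (1.00 ± 0.41 against 0.61), Sesn2 (1.01 ± 0.45 against 1.16) and Asns (-0.07 ± 0.17 against -0.24) the gap was about the SE or less. The plot of fold change against GC content shows the 10 genes among tested genes, without these medians drawn.

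**Figure D2:**
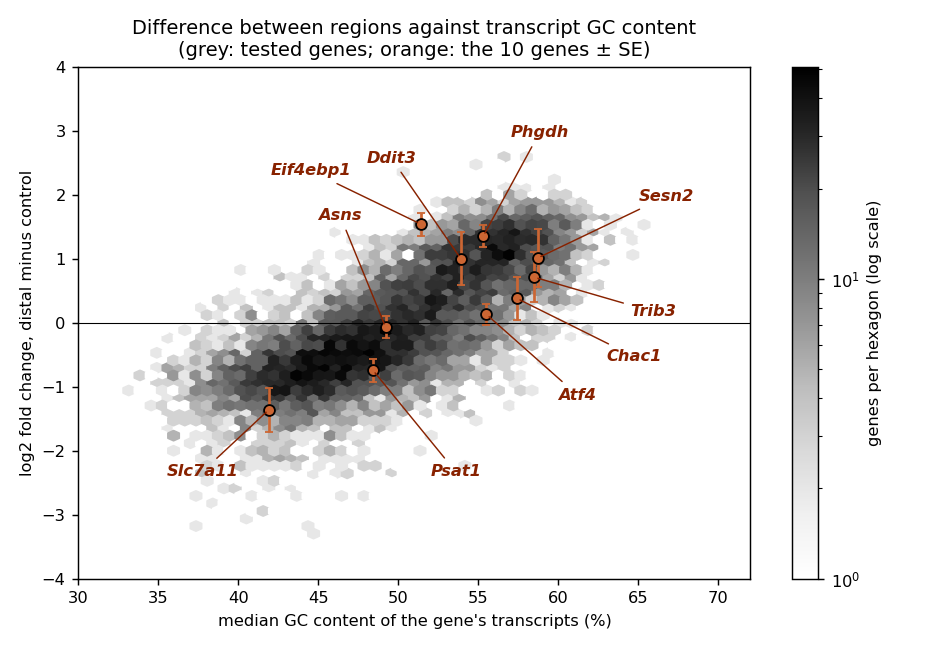
Log2 fold change (distal minus control) against the median GC content of each gene's transcripts, in percent, for tested genes (grey hexagons, darker for more genes, on a log scale) and the 10 genes (orange, ± SE). Genes rich in GC are mostly higher in distal cells: Eif4ebp1 at 51.4% GC lies at 1.54 where like genes have a median of 0.13, and Atf4 at 55.5% GC lies at 0.13 where like genes have a median of 0.87.

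**Figure D3:**
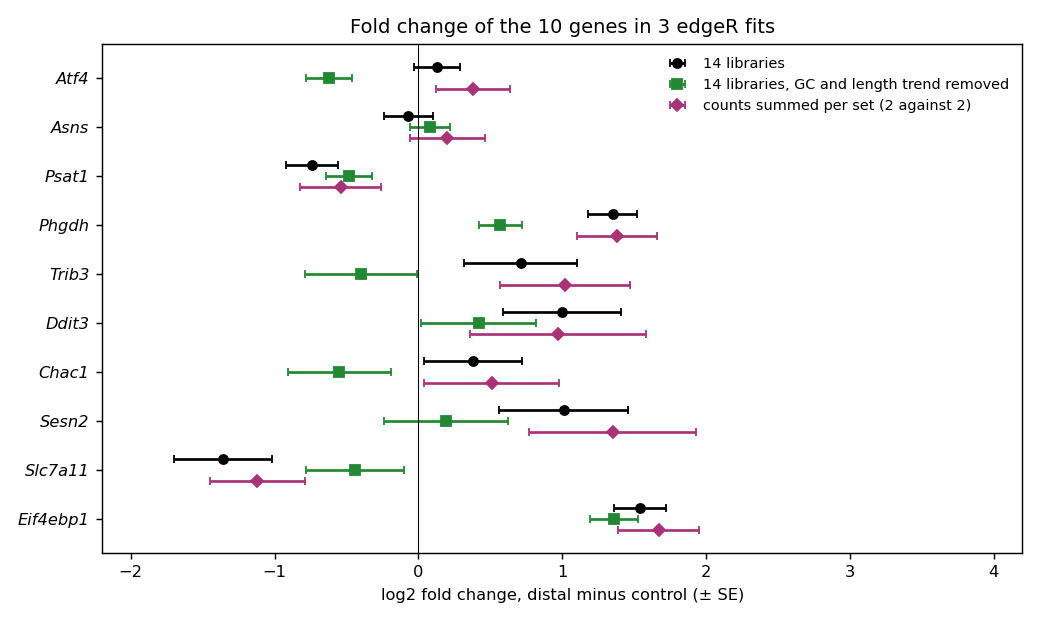
Log2 fold change (distal minus control, ± SE) of the 10 genes in 3 edgeR fits: the 14 libraries, the same with the GC and length trend of each library removed, and counts summed per set. Phgdh and Eif4ebp1 lie above 0 and Psat1 and Slc7a11 below 0 in all 3, while Atf4, Trib3 and Chac1 change sign with the trend removed and Asns lies near 0.

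The sets within a region offer a comparison that did not choose the genes. In a model with 4 sets, none of the 10 genes differed between the sets of a region at the adjusted threshold, and neither did any of the 11757 tested genes (0% called in either contrast by edgeR). At an unadjusted p under 0.05, 921 genes (7.83%) differed between the distal sets and 969 (8.24%) between the control sets. None of the 10 was among the former and 1, Phgdh, among the latter. Phgdh averaged 60.5 CPM ± 12 (SD, n = 6) in control set 1 and 90.7 CPM ± 23.2 (SD, n = 2) in control set 2, a log2 difference of 0.58 ± 0.22 (SE; adjusted p = 0.509 by edgeR). Its distal sets averaged 194 CPM ± 5.43 (SD, n = 2) and 163 CPM ± 19.5 (SD, n = 4). Eif4ebp1 averaged 46.2 and 57.9 CPM in control sets 1 and 2, and 172 CPM ± 9.09 (SD, n = 2) and 129 CPM ± 17.3 (SD, n = 4) in distal sets 1 and 2. Its log2 difference between the distal sets, set 2 minus set 1, was -0.42 ± 0.26 (SE; adjusted p = 0.72 by edgeR), and between the control sets 0.33 ± 0.25 (SE; adjusted p = 0.743 by edgeR). Sesn2 had the widest gap between distal sets among the 10, at 11.2 CPM ± 3.99 (SD, n = 2) and 5.51 CPM ± 2.93 (SD, n = 4), with a log2 difference of -1.02 ± 0.71 (SE; adjusted p = 0.759 by edgeR). The sets also differed in GC slope, at 0.74 to 0.91 in distal set 1 and 0.22 to 0.90 in distal set 2, and the part of that in these differences was not tested.

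Levels per length, in CPM per kb of annotated exon, put the 10 genes in 2 tiers in both regions. In control cells the order of the means was Psat1 (81.0), Atf4 (49.4), Asns (45.3), Phgdh (27.4) and Eif4ebp1 (22.4), then Chac1 (5.52), Trib3 (3.58), Slc7a11 (2.49), Ddit3 (1.79) and Sesn2 (1.05). In distal cells it was Phgdh (69.7), Eif4ebp1 (65.3), Atf4 (54.0), Psat1 (48.5) and Asns (43.1), then Chac1 (7.21), Trib3 (5.87), Ddit3 (3.59), Sesn2 (2.13) and Slc7a11 (0.962). The upper 5 genes were the same in both regions, and their lowest library lay above the highest library of the lower 5: 14.5 against 11.1 CPM per kb in control and 32.4 against 10.9 in distal cells. All other neighbours in either order overlapped. By summed exon length, Phgdh went from the fourth place to the first and Psat1 from the first to the fourth. The exons of Slc7a11 add up to 13922 nt while its median transcript has 2677 nt. Its level per length therefore depends on which transcripts the cells make. The same holds for Psat1 (4254 and 588 nt) and Phgdh (2486 and 643.5 nt), among others. In distal cells Psat1 had more CPM than Phgdh (206 and 173) and the shorter median transcript. By median transcript length Psat1 would therefore stay above Phgdh there. All places, and the gap between the tiers, are given for the summed exon length only and may not hold for another length.

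**Figure D4:**
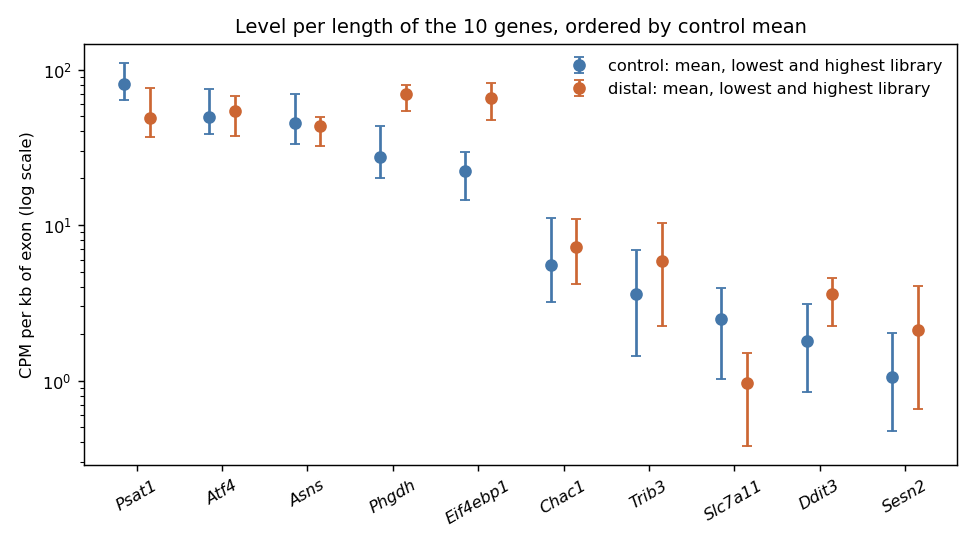
Level per length (CPM per kb of annotated exon, log axis) of the 10 genes in control (blue) and distal (orange) cells, as the mean with bars to the lowest and highest library. Psat1, Atf4, Asns, Phgdh and Eif4ebp1 lie at 14.5 CPM per kb or above in every library and the other 5 genes at 11.1 or below.

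Within each region Atf4 and Asns correlated positively over libraries, but the relation did not pass. Over log2 CPM it was r = 0.77 in control (n = 8; exact permutation p = 0.0395, adjusted p = 0.237; rho = 0.48, exact permutation p = 0.243) and r = 0.95 in distal libraries (n = 6; exact permutation p = 0.0125, adjusted p = 0.125; rho = 0.83, exact permutation p = 0.0583). The adjustment covers 18 relations, Atf4 with each of the other 9 genes in 2 regions, and none passed. Without the 2 libraries farthest from the Atf4 median, r was -0.33 in control and 0.36 in distal cells, so both relations rest on those libraries (control replicates 6 and 8, distal replicates 1 and 4). Leaving out the extremes of Atf4 also narrows its range and leaves 4 distal libraries. With 1 library left out at a time, r was 0.25 to 0.90 in control, lowest without replicate 6, and 0.74 to 0.99 in distal libraries, and with the trend removed the distal r was 0.73. Eif4ebp1 had r = 0.90 with Atf4 in distal libraries (exact permutation p = 0.0139, adjusted p = 0.125; rho = 0.83, adjusted p = 0.525) and 0.20 without the same 2 libraries. In control libraries it had r = 0.06 (exact permutation p = 0.892; rho = 0.12).

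As a description, the genes whose log2 CPM followed Atf4 most closely over the 14 libraries, with region means removed and among 8542 genes, included Mrpl40 (r = 0.89), Mrpl49 (0.85), Ralb (0.84) and Mta3 (0.84). Asns had r = 0.82 on this measure. Those closest to Eif4ebp1 were Adipor1 (0.93), Rpl23a (0.93), Txn2 (0.92), Mif (0.91) and Rpl34-ps1 (0.91). These points share libraries, depth and GC trend.

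The lists that follow are to be read against all tested genes, of which 24.3% were higher and 24.1% lower with a median of -0.16, and 10.4% and 8.57% with a median of 0.03 once the trend was removed. Upstream of Atf4, the eIF2 list holds the kinases that sense stress, the eIF2 subunits, the exchange factor eIF2B and the phosphatase that resets the system. Of 18 tested genes 7 rose and 4 fell (median log2 fold change -0.12; 0.19 with the trend removed), and 5 of 17 rose and 1 fell once the trend was removed. Gcn1, which activates the amino acid sensing kinase GCN2, rose from 58.7 to 152 CPM, a log2 fold change of 1.37 ± 0.16 (SE; adjusted p = 4.11e-06 by edgeR). It has no GC value here, so it is missing from the second fit. Eif2b2, an eIF2B subunit, rose by 1.48 and by 0.57 with the trend removed. Ppp1r15a, which encodes the phosphatase subunit GADD34 that ends eIF2 phosphorylation and is itself an output of the pathway, rose from 4.72 to 15.4 CPM (log2 fold change 1.70; 0.99 with the trend removed, adjusted p = 0.0235 by edgeR). Eif2s2, the beta subunit of eIF2, fell by 0.88 on the log2 scale, but stood at 0.07 with the trend removed (adjusted p = 0.729 by edgeR).

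Among 12 tested bZIP partners and other regulators of ATF4, 3 rose and 3 fell, but none rose and 2 fell with the trend removed (medians 0.14 and -0.09). Cebpb, a dimer partner, rose by 1.03 and Atf5, the closest paralog, by 1.03, and with the trend removed they stood at 0.03 and -0.05. The AP-1 gene Fos fell from 90.6 to 40.5 CPM (log2 fold change -1.16), and further with the trend removed (-1.99, adjusted p = 4.27e-05 by edgeR). Nupr1, a stress-induced chromatin protein gene, rose by 0.58, a call lost with the trend removed (-0.17). The number that fell was 1 without control replicate 4 or distal replicate 1, 2, 5 or 6.

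The serine and one-carbon list, which extends Phgdh and Psat1, had 3 of 7 tested genes higher and none lower, with a median log2 fold change of 0.52, or 0.15 with the trend removed. Shmt2, the mitochondrial enzyme that turns serine into glycine, rose from 71.4 to 162 CPM (1.18; adjusted p = 2.41e-05 by edgeR), Psph, the last step of serine synthesis, from 28.2 to 50.3 CPM (0.83), and Mthfd1, a cytosolic folate enzyme, from 60 to 86.1 CPM (0.52). With the trend removed these 3 stood at 0.15, 0.17 and 0.30 and none passed, while Mthfd2, a mitochondrial folate enzyme, passed at 0.47 (adjusted p = 0.0467 by edgeR) after 0.39 in the first fit (adjusted p = 0.0552 by edgeR). The number that rose was 5 without distal replicate 4.

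Of 11 other tested genes of amino acid synthesis, 3 rose and 2 fell (medians 0.33 and -0.14 before and after removal), and 3 rose and none fell once the trend was removed. The aspartate aminotransferase gene Got2 rose from 57.3 to 106 CPM (0.88; 0.52 with the trend removed, adjusted p = 0.0103 by edgeR). Pycrl, a proline synthesis gene, rose by 1.10 and stood at 0.16 with the trend removed. The number that fell was 1 without distal replicate 1, 4 or 5.

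Amino acid transporters other than Slc7a11 had 2 of 13 higher and 2 lower (medians 0.11 and -0.16), and none passed with the trend removed. Slc7a5 and Slc3a2, the light and heavy chains of the large neutral amino acid exchanger, rose by 0.77 and 0.54. Slc3a2 is also the heavy chain of the exchanger that holds Slc7a11. Slc38a2, a glutamine carrier, fell from 858 to 486 CPM (-0.82). It was lower in each distal library than in all control libraries, as were 5.65% of tested genes. Slc36a4 fell by 0.95 on the log2 scale. With the trend removed these 4 were at -0.12, -0.26, 0.09 and -0.54, in that order. Without distal replicate 4 the number that rose was 5.

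Cytosolic transfer RNA synthetases and their export factors included 10 that rose and 5 that fell of 21, but 2 and 1 with the trend removed (medians 0.05 and 0.30). Vars rose from 49.1 to 123 CPM (1.33) and Farsa from 35.9 to 86.9 CPM (1.27; 0.47 with the trend removed, adjusted p = 0.0359 by edgeR). Iars, the isoleucine enzyme, fell from 706 to 267 CPM (-1.40; -1.24 with the trend removed, adjusted p = 0.000866 by edgeR). Vars and Mars stood at 0.30 and 0.25 with the trend removed and did not pass. The number that fell was 2 or 3 without control replicate 6 or 7 or any 1 distal library.

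Downstream of Sesn2 and upstream of Eif4ebp1, the list of mTORC1 and amino acid sensing genes held 14 that rose and 7 that fell of 30, but 3 and 2 with the trend removed (medians 0.54 and 0.20). Rraga, the GTPase that brings mTORC1 to the lysosome, fell from 379 to 129 CPM (-1.55; -1.30 with the trend removed, adjusted p = 0.000161 by edgeR). Sec13, a GATOR complex and coat protein gene, rose from 91.2 to 199 CPM (1.13; 1.30, adjusted p = 1.81e-05 by edgeR) and the lysosomal anchor gene Lamtor1 from 47.2 to 114 CPM (1.27; 0.66, adjusted p = 0.00628 by edgeR). Castor1, an arginine sensor, rose by 1.45, a call lost with the trend removed (0.53). The number that fell was 4 without control replicate 6 or distal replicate 1, 2, 4, 5 or 6.

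Of 11 cap-binding translation factors, the targets of 4E-BP1 and their partners, 3 rose and 2 fell, and 1 rose and 1 fell with the trend removed (medians -0.05 and -0.12). Eif4e, which 4E-BP1 binds, fell from 392 to 242 CPM (-0.69), but stood at -0.12 with the trend removed (adjusted p = 0.555 by edgeR). Its homologue Eif4e2 rose from 49.8 to 120 CPM (1.26; 1.28, adjusted p = 1.91e-05 by edgeR). Eif4g1 rose by 0.55 and Eif4a2 fell by 0.77 on the log2 scale, and with the trend removed they were at -0.13 and 0.01. The paralog Eif4ebp2 did not pass, at 119 CPM in control and 150 CPM in distal cells (0.34, adjusted p = 0.0754 by edgeR). Eif4ebp3 averaged 0 and 0.0941 CPM and was too low to test.

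Among 8 tested close paralogs of the 10 genes, 1 rose and 3 fell, and none passed with the trend removed (medians -0.30 and -0.38). Sesn1 fell from 13.4 to 3.40 CPM (-1.97) and Sesn3 from 16.4 to 8.42 CPM (-0.94), while Sesn2 was at 1.01 and did not pass. Atf5 is given above, and Cebpg fell by 0.47 on the log2 scale. Chac2 (-0.42), Trib1 (-0.18) and Trib2 (-0.18) did not pass, and Slc7a10 had no counts. Without control replicate 6 or 7 or distal replicate 1, 2, 3 or 6, 2 paralogs rose; without control replicate 6, 7 or 8 or distal replicate 1, 2, 5 or 6, 1 fell.

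Of 14 other stress outputs of ATF4 and CHOP, 2 rose and 2 fell, and 2 rose and 4 fell once the trend was removed (medians -0.16 and -0.44). Those that rose were Ppp1r15a and Nupr1. Ero1l, which oxidises proteins in the endoplasmic reticulum, fell from 179 to 92.5 CPM (-0.95) and the lipoprotein receptor gene Vldlr from 19.2 to 8.93 CPM (-1.09), and both calls were lost with the trend removed (-0.33 and -0.70). The number that rose was 4 without control replicate 6 or distal replicate 3 or 4, and the number that fell was 1 without control replicate 6 or distal replicate 2, 4 or 6.

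The ATF6 and XBP1 branches of the unfolded protein response, which act beside ATF4, held 5 genes that rose and 7 that fell of 25, and 3 and 4 with the trend removed (medians -0.09 and -0.04). The chaperone gene Hspa5, which encodes BiP, fell from 1870 to 937 CPM (-1; -0.52 with the trend removed, adjusted p = 0.0166 by edgeR). Hsp90b1 fell from 4080 to 1620 CPM (-1.33; -0.62, adjusted p = 0.0113 by edgeR) and Mbtps2, a protease that activates ATF6, from 92.8 to 31.8 CPM (-1.55; -0.72, adjusted p = 0.0232 by edgeR). Syvn1, a ubiquitin ligase of the endoplasmic reticulum, rose by 1.13, a call lost with the trend removed (0.35). Each distal library was below all control libraries for 4 genes of the list, Hspa5, Hsp90b1 and Mbtps2 among them. Each was above all control libraries for 3, Syvn1 among them. Of all tested genes, 5.65% were separated downwards and 12.7% upwards in this way.

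Glutathione metabolism, which Slc7a11 feeds and Chac1 drains, had 3 of 9 tested genes higher and 2 lower in both of these fits (medians -0.40 and -0.01). The peroxidase genes Gpx1 and Gpx4 rose from 62.1 to 193 CPM (1.64; 0.71 with the trend removed, adjusted p = 0.00151 by edgeR) and from 27.7 to 98.3 CPM (1.83; 0.76, adjusted p = 0.00208 by edgeR). Gss, the last enzyme of glutathione synthesis, rose from 12.9 to 37.3 CPM (1.52; 0.90, adjusted p = 0.0228 by edgeR). Txnrd1, thioredoxin reductase, fell from 240 to 105 CPM (-1.2; -1.04, adjusted p = 0.00101 by edgeR). The number that fell was 4 without control replicate 1 or 2 and 1 without distal replicate 1 or 6.

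**Figure D5:**
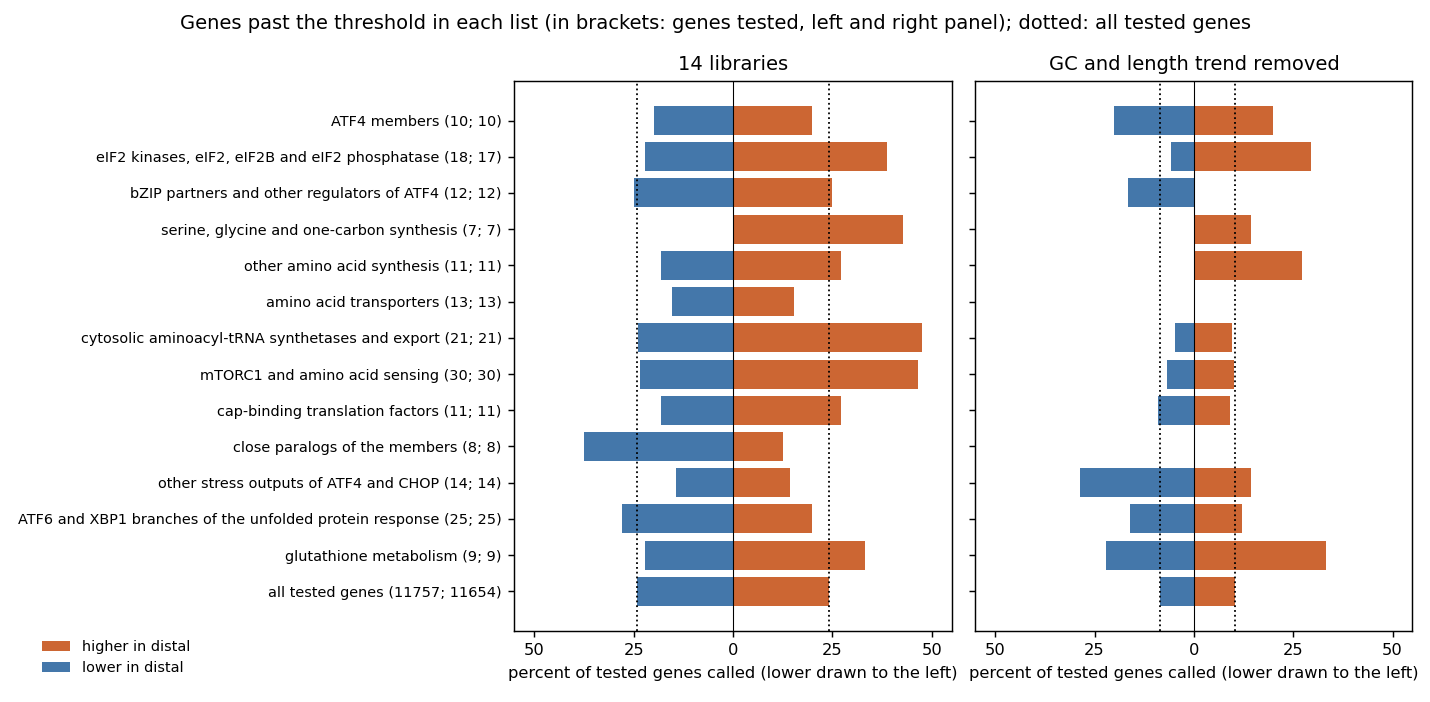
Percent of tested genes past the threshold in each list, higher in distal cells drawn to the right (orange) and lower to the left (blue), for the 14 libraries and with the GC and length trend removed, with dotted lines for all tested genes. The bars of the 10 ATF4 genes stand for 2 higher and 2 lower genes in both panels, and those higher include Eif4ebp1, which was chosen for its rise; most lists hold fewer calls in the right panel, as do all tested genes.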

How the data were processed

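Libraries were made with Smart-Seq2 and NexteraXT, per the labels' protocols, and the authors deposited 1 table of raw, whole-number counts by gene symbol, with no normalisation. HISAT2 2.2.01, featureCounts 1.6.12 and the build mm10 (GRCm38) are named in the submitters' processing notes; how counting handled strand and shared reads was not given in the sources used here. The whole table was tested with edgeR 4.0.16 in R 4.3.3, using filterByExpr, TMM and the robust two-sided quasi-likelihood F test. Log2 CPM used a prior count of 2. Gene positions, length and GC content came from GENCODE for GRCm38 (a GC value for 11654 tested genes), and promoters from RefSeq. The trend was removed by entering fitted natural splines of GC content and of log2 length, each of 4 degrees of freedom, as offsets. Like GC content means within 1 percentage point. Sets came from the sample descriptions; the titles of control replicates 7 and 8 name the first control set, and their descriptions the second. Alternatives were other scalings (DESeq2 1.42.0 size factors, upper quartile), DESeq2, no filter, thinning, a replicate block, and leaving out sets and libraries. The code was tested on simulated data.

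The 10 genes and all lists were chosen with earlier results of these data known. Named genes are the 10 members, the tested genes of lowest p in each list described (up to 4), all paralogs of the members, the 5 genes most like Atf4 and Eif4ebp1 (average log2 CPM of at least 3), and label checks. Pycrl was matched through a RefSeq synonym. Libraries of a set differed by more than sampling noise and were kept apart. A few genes that this rule names are not reported here.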

Additional observations from a re-analysis of the deposited data

Results flagged for a closer look

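In 2 of 20 groups of values (10 genes in 2 regions) a single library stood far from the others by Dixon's criterion, which flags about 1 in 20 groups by chance. Atf4 reached 176 CPM in control replicate 6, with the nearest library at 126 CPM. Psat1 reached 324 CPM in distal replicate 4, with the nearest at 202 CPM. Distal replicate 4 also has the highest muscle marker sum, and the part of that in the Psat1 value was not tested. The sum is nearly all Acta1, which averaged 14.7 CPM in distal libraries, with Des at 0.176 and Myh11 at 0.182 CPM.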

How the results depend on the processing

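Phgdh was higher in all 28 alternatives to the 14-library fit. Counts of higher genes here include Eif4ebp1, which was chosen for its rise and supports nothing. The number of the 10 genes that were higher was 2 in the 14-library fit, 4 with upper-quartile scaling (adding Ddit3 and Sesn2) and 2 to 3 with 1 library left out. The number lower was 1 with counts summed per set (Slc7a11), 0 without control set 1, 1 without distal set 2 (Psat1), and 2 to 2 with 1 library left out. Of all tested genes, 48.3% were called in the 14-library fit and 30.5% with summed counts. The share was 18% without control set 1 and 31.9% without distal set 2. With upper-quartile scaling 3255 genes were higher and 2202 lower, against 2853 and 2828 in the 14-library fit. Nothing is read from the numbers among the 10 genes. The numbers that differed between sets were 0 in every alternative run. Signs turned for Atf4 (-0.62 with the GC and length trend removed), Trib3 (-0.40), Chac1 (-0.55, and -0.17 without distal set 2) and Asns (0.08; 0.10 with upper-quartile scaling, 0.20 with summed counts, 0 with thinned counts, 0.20 without control set 1, 0.06 without distal set 2, 0.08 without the 3 libraries of highest fibroblast or muscle marker sums, and -0.11 to 0.15 with 1 library left out); apart from the removal of the trend itself, the cause was not tested. The median over all genes was -0.16 with TMM, -0.18 with DESeq2 size factors and 0.00 with upper-quartile scaling, and 50.2%, 48.6% and 59.6% of calls were higher; with counts summed per set 61.6% were. Replicate numbers from the titles showed no pairing of the samples, with correlations of -0.02 to 0.11 between same-numbered libraries. Only distal replicates 2 and 3 correlated best with their own number. The descriptions number the libraries otherwise, and pairing by those numbers was not tested. With the replicate block 2 genes were higher and 2 lower, and over all genes 2586 and 2856; with the block and the trend removed Atf4 was at -0.68, Asns at 0.06, Trib3 at -0.49 and Chac1 at -0.71. The correlation alternatives and the fit without 3 libraries were chosen after seeing the data. Depth limits Ddit3 and Sesn2 most, then Trib3, Chac1 and, in distal libraries, Slc7a11.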
